A study of Ictidomys tridecemlineatus with 31 samples.

Results

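The genes described are 10 transcripts of the integrated stress response, Atf4, Atf5, Ddit3, Ddit4, Asns, Chac1, Sesn2, Ppp1r15a, Gadd45a, and Cebpb, among the 12863 genes measured in kidneys of 13-lined ground squirrels (13-LGS, Ictidomys tridecemlineatus). They were chosen by name and each was found once among the symbols of the authors' table, 9 with a symbol from the reference annotation and 1, Cebpb, with a symbol taken from a match to a human sequence. RNA-Seq of 31 animals, 1 kidney each, covered 6 states. Of these, 2 are homeothermic, namely summer active (SA), fattening animals, and spring dark (SpD), animals past their last torpor bout but still in the hibernaculum. The other 4 are stages of the torpor-arousal cycle, early arousal (EAr) and late arousal (LAr) while the animal rewarms from torpor, interbout aroused (IBA) soon after rewarming, and entrance into torpor (Ent) while body temperature falls. SA, EAr, and LAr were sequenced only in experiment 2 (Nugen libraries), whereas IBA, Ent, and SpD each had 3 animals in experiment 1 (TruSeq libraries) and 2 in experiment 2. K113 (LAr) and K137 (SA), which the study left out of its DE analysis, are shown apart, leaving 29 animals, 5 in each state except SA with 4. Each of the 6 states had 2 or 3 animals of each sex.

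The integrated stress response is the route by which amino acid shortage, unfolded proteins in the endoplasmic reticulum, heme lack, and double-stranded RNA slow protein synthesis. A kinase for each signal phosphorylates the initiation factor eIF2, which lowers translation in general but favors that of Atf4 and Atf5, and these factors raise transcription of Ddit3, Asns, Chac1, Sesn2, Ddit4, and other genes. Ppp1r15a, induced late, brings a phosphatase to eIF2 and ends the response. Atf4 protein is set largely by translation, which RNA-Seq does not measure, and in the kidney this pathway is known for its part in tubular injury after ischemia and toxins.

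Values are batch-corrected regularized log (rlog) values on a log2 scale. They allow a gene to be compared between animals of an experiment but, without transcript lengths, not with another gene. Each gene had the same mean in both experiments (largest difference 1.07e-14), although the experiments differ in their states. Readings, ranges, overlaps, and orders of means that mix experiments can thus carry a shift between them. The term for experiment in the limma differences takes up such a shift. Animals had similar medians over all genes (9.74 to 9.88), and single values spanned 4.11 to 19.79. Sequencing depth is unknown from these values. Of 33 markers of kidney and other cells, 18 were in the table, and none of the 6 adrenal markers was. By limma, 0 of these 18 passed q under 0.001 in any of the 7 pairs of states. At an unadjusted p under 0.05 the count per pair ran from 1 (LAr minus EAr and EAr minus Ent) to 11 (SpD minus IBA). Of all 12863 genes, 1071 passed in LAr minus EAr, 7.16% in EAr minus Ent, and 26.6% in SpD minus IBA. The markers thus exceeded the share of all genes in SpD minus IBA. Their part in member differences of that pair, such as those of Atf5 and Ddit4, was not tested. Differences come from limma with state, sex, and experiment as terms, given as the first state minus the second on the log2 scale with its SE, and q is the p-value adjusted by Benjamini-Hochberg over all genes. A gene is called at q under 0.001. In whole kidney, fewer cells of a type and less RNA per cell cannot be told apart.

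Across the 6 states, 5 of the 10 members were called, Ppp1r15a, Ddit3, Ddit4, Asns, and Atf4, against 9.34% of all genes. Among the other 5, the limma q across states was 0.00143 for Atf5, 0.0109 for Gadd45a, 0.0117 for Cebpb, 0.0222 for Chac1, and 0.447 for Sesn2. The called members had their extremes in different states. By state means, Ppp1r15a and Ddit3 were highest in LAr, Ddit4 was highest in SA and lowest in EAr, Asns was lowest in SpD, and Atf4 was lowest in EAr and Ent. With K113 and K137 included, 3 members were called (Ppp1r15a, Ddit4, and Asns), while Ddit3 had q = 0.00158 and Atf4 q = 0.00200 by limma.

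**Figure D1:**
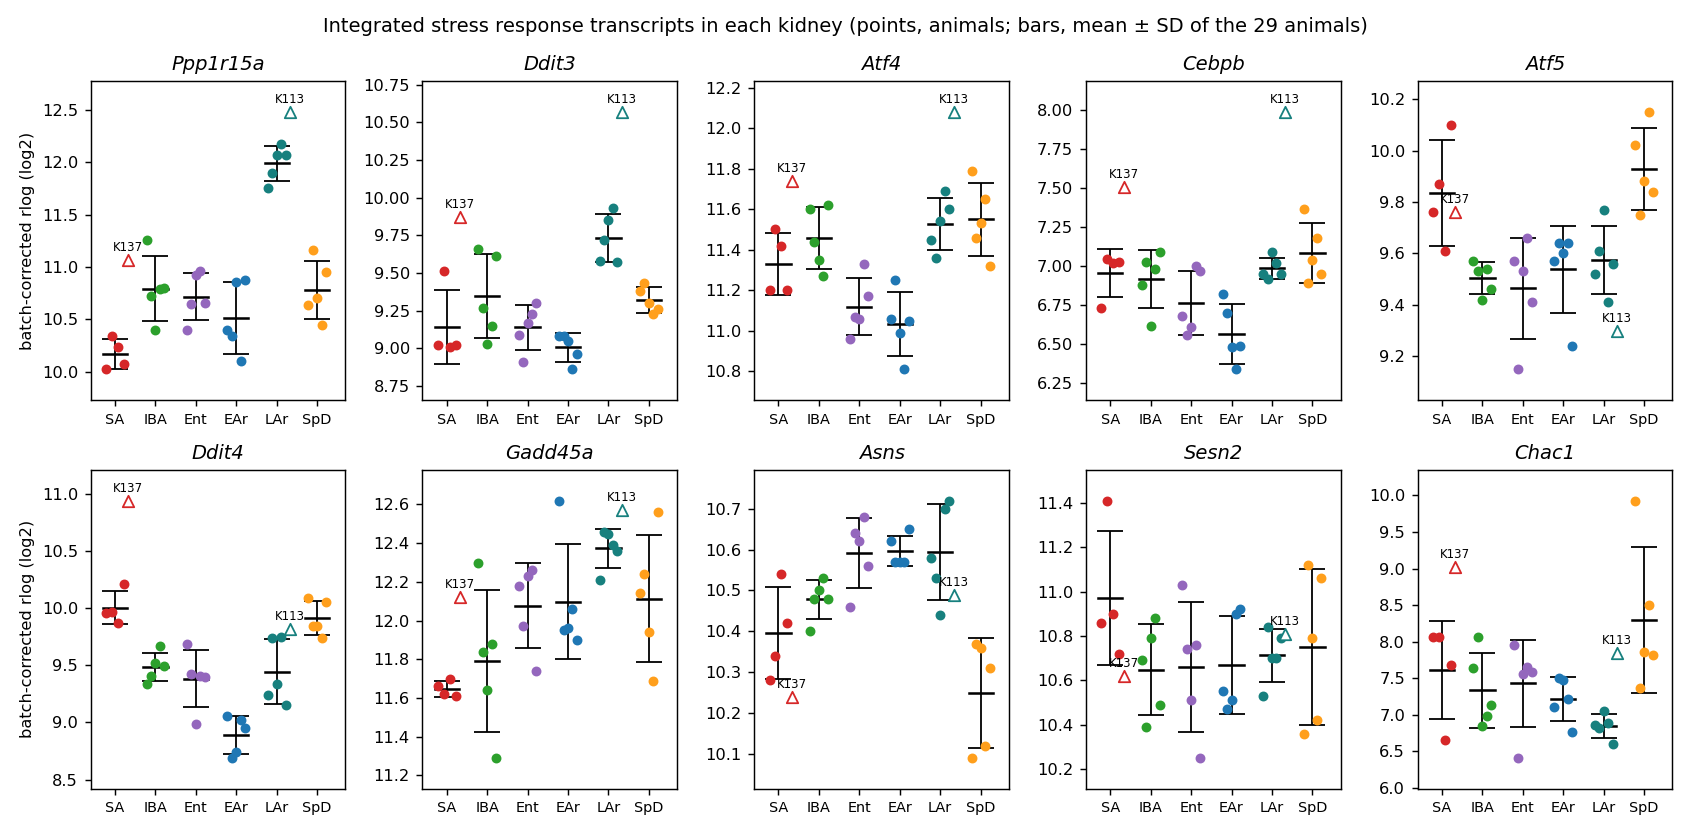
Batch-corrected rlog values (log2, y axis) of the 10 members in each kidney by state (x axis). Filled points are the 29 animals, black lines and bars are mean ± SD, and open triangles are K113 and K137. Ppp1r15a in LAr (11.75 to 12.17) lies above every other point of the 29 animals, and Ddit4 in EAr (8.69 to 9.06) lies below every SA and SpD animal.

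The first question was what happens to the regulators of the response as animals rewarm from torpor. Ppp1r15a encodes GADD34, the regulatory subunit that directs protein phosphatase to eIF2. In EAr it read 10.40, 10.34, 10.86, 10.10, and 10.88 in K154, K156, K157, K158, and K165. In LAr it read 11.75, 11.90, 12.07, 12.17, and 12.07 in K109, K111, K112, K115, and K116, with 12.48 in K113. Every LAr animal was above every EAr animal. Ppp1r15a rose from EAr to LAr by 1.49 ± 0.13 (SE, n = 5 and 5), or 2.81-fold, with q = 1.15e-07 by limma, and by 1.56 with q = 8.96e-07 in all 31 animals.

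The increase in Ppp1r15a did not last into interbout arousal. In IBA the values were 11.26, 10.72, 10.40, 10.79, and 10.80 in K1, K104, K171, K4, and K7, so no IBA animal reached the lowest LAr animal. The fall from LAr to IBA was -1.42 ± 0.15 (limma q = 1.91e-06), and within experiment 2, which holds all LAr and 2 of the IBA animals, the difference of means was -1.43. Fitted on IBA and LAr animals only, the difference was -1.44 and no longer called (limma q = 0.00727). In that fit experiment 1 held only IBA animals. With the term for experiment, the difference thus rested on the 2 IBA animals of experiment 2. The proximal tubule marker mean was 14.13 to 14.83 in IBA and 14.78 to 15.05 in LAr, and the podocyte marker mean 9.94 to 11.71 and 11.70 to 12.16. Fibroblast and macrophage markers went the other way. Their IBA minus LAr differences were 0.88 for S100a4, 0.25 for Plac8, 0.50 for C1qa, and 0.40 for C1qb, none called. The part of these markers in this fall was not tested. After that, Ent read 10.40, 10.65, 10.92, 10.96, and 10.66 in K155, K167, K2, K5, and K8, which overlaps both IBA and EAr, and neither Ent minus IBA (-0.07, limma q = 0.745) nor EAr minus Ent (0.00, limma q = 0.999) was called.

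In the homeothermic states, Ppp1r15a read 10.03, 10.34, 10.24, and 10.07 in the SA animals K138 to K141, and 11.07 in K137. SpD animals read 10.64, 11.16, 10.70, 10.45, and 10.95 in K130, K3, K6, K84, and K9. LAr was thus above both active states without overlap, by 1.63 ± 0.12 against their mean (3.10-fold, limma q = 2.59e-09). SA was the lowest state and its 4 animals lay below all 5 of SpD, but SA minus SpD (-0.40, limma q = 0.0939) and IBA minus SA (0.41, limma q = 0.0581) were not called. The order of the state means, not adjusted for experiment, was LAr, IBA, SpD, Ent, EAr, and SA, and beyond the gap below LAr each neighboring pair overlapped. The Ent mean was 0.20 above the EAr mean, whereas limma, with its term for experiment, gave 0.00 for EAr minus Ent. The LAr increase and the later fall remained at q under 0.001 with any 1 of the 29 animals left out.

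Ddit3 encodes CHOP, a transcription factor induced by ATF4 that is known for promoting cell death when stress persists. EAr animals read 9.08, 9.08, 9.05, 8.86, and 8.96 (K154, K156, K157, K158, and K165), and LAr animals read 9.58, 9.72, 9.85, 9.93, and 9.57 (K109, K111, K112, K115, and K116). The groups did not overlap, and K113 was higher still at 10.57. Ddit3 rose from EAr to LAr by 0.71 ± 0.10, or 1.63-fold (limma q = 2.15e-04). This call was sensitive to single animals and settings. The limma q was 0.00117 without K112, 0.00164 without K115, 0.00113 without K158, 0.00114 in experiment 2 alone, 0.00244 with only EAr and LAr animals, and 0.00267 with a difference of 0.86 in all 31.

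Ddit3 in LAr was also above the active states, which read 9.02, 9.51, 9.01, and 9.02 in SA (K138 to K141) and 9.38, 9.43, 9.30, 9.23, and 9.26 in SpD (K130, K3, K6, K84, and K9). The groups did not overlap, and the difference from the mean of SA and SpD was 0.56 ± 0.09 (limma q = 1.69e-04). It had q = 0.00124 without K115, 0.00102 in experiment 2 alone, 0.00400 with only the animals compared, and 0.00171 in all 31. IBA animals (9.66, 9.27, 9.03, 9.15, and 9.61 in K1, K104, K171, K4, and K7) spread across the range from EAr to LAr, and IBA minus LAr (-0.51 ± 0.11) had q = 0.00446 by limma. Of these, K1, K4, and K7 are of experiment 1, whereas all EAr and LAr animals are of experiment 2. Within experiment 2, K104 and K171 lay below every LAr animal, and the difference of means was -0.58. Ent animals ranged from 8.91 to 9.30, and Ent minus IBA was -0.20 (limma q = 0.192).

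In LAr minus EAr, 2 of the 10 members were thus called, both higher, against 0.295% of all genes. A further 3 members, Ddit4, Atf4, and Cebpb, had LAr values above all EAr values without reaching the threshold, so 5 of 10 members did not overlap against 6.84% of all genes. The median difference of the members was 0.34, with 9 positive and 1 negative, and that of all genes was 0.00. Among the positive ones, Asns (0.00 ± 0.06), Atf5 (0.01 ± 0.09), and Sesn2 (0.04 ± 0.16) were smaller than their SE. Proximal tubule markers, averaged in each animal, lay at 14.96 to 15.23 in EAr and 14.78 to 15.05 in LAr, and fibroblast markers at 7.51 to 8.16 and 7.18 to 7.56. The genes within each average differed and none was called. LAr minus EAr was -0.44 for Lrp2 and 0.04 for Slc27a2 of the proximal tubule, and -0.78 for S100a4 and 0.01 for Plac8 of fibroblasts. The part of these markers in the member differences was not tested. From LAr to IBA, 1 of 10 members fell, Ppp1r15a, against 1.43% of all genes, and it was also the 1 member whose groups did not overlap, against 13.7% of genes. Against the active states, 3 of 10 members were higher in LAr, Ppp1r15a, Ddit3, and Asns (5.01% of all genes called), and for 2 of them, Ppp1r15a and Ddit3, the groups did not overlap (6.61% of genes).

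**Figure D2:**
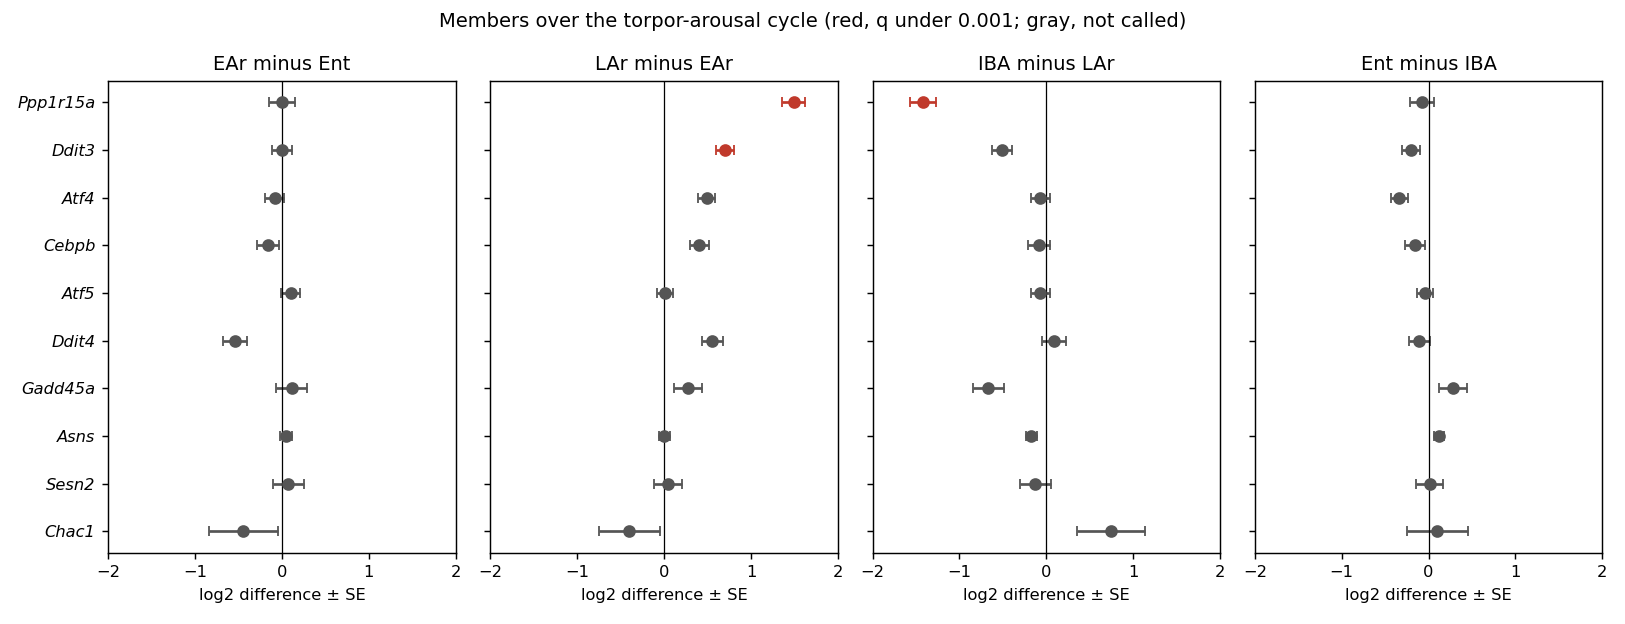
Log2 differences ± SE (x axis) of each member (y axis) for the 4 successive steps of the torpor-arousal cycle, from limma in 29 animals, red at q under 0.001. Ppp1r15a rose by 1.49 from EAr to LAr and fell by 1.42 from LAr to IBA, Ddit3 rose by 0.71, and no member was called in EAr minus Ent or Ent minus IBA.

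Atf4, the transcription factor at the center of the response, moved less. EAr animals read 11.06, 11.25, 10.99, 10.81, and 11.05 (K154, K156, K157, K158, and K165), and Ent animals read 10.96, 11.07, 11.06, 11.33, and 11.17 (K155, K167, K2, K5, and K8). LAr animals read 11.45, 11.36, 11.54, 11.69, and 11.60 (K109, K111, K112, K115, and K116), all above the EAr animals. LAr minus EAr was 0.49 ± 0.10 with q = 0.0135 by limma. The remaining states lay at the LAr level or between, with 11.60, 11.44, 11.35, 11.27, and 11.62 in IBA, 11.20, 11.50, 11.42, and 11.20 in SA, and 11.79, 11.46, 11.53, 11.65, and 11.32 in SpD (animals in the order given above). Neighbors in the order of the means (SpD, LAr, IBA, SA, Ent, EAr) overlapped throughout. EAr minus the active states was -0.41 ± 0.09 (limma q = 0.00238), and -0.49 in experiment 2 alone (limma q = 3.64e-04).

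The call of Atf4 across states (limma q = 6.21e-04) was close to the threshold. It was lost without any 1 of 13 animals, K104 of IBA, K112, K115, and K116 of LAr, K154, K157, K158, and K165 of EAr, K155, K167, and K2 of Ent, and K6 and K84 of SpD, with q from 0.00104 to 0.00153. Of the 10 comparisons of states, none was called for Atf4.

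Atf5 encodes a related factor that is also translated when eIF2 is phosphorylated and that is known for inducing mitochondrial chaperones. It was 9.84 ± 0.20 (SD, n = 4) in SA and 9.93 ± 0.16 (n = 5) in SpD, against 9.51 ± 0.06 in IBA, 9.46 ± 0.20 in Ent, 9.54 ± 0.17 in EAr, and 9.57 ± 0.14 in LAr. The active states had the higher means, IBA overlapped neither SA nor SpD, and yet SpD minus IBA (0.42 ± 0.09) had q = 0.00537 and IBA minus SA (-0.34 ± 0.11) q = 0.0277 by limma. Within experiments, SpD minus IBA was 0.30 in experiment 1 (3 and 3 animals) and 0.61 in experiment 2 (2 and 2). Without K3 of SpD, Atf5 had q = 7.16e-04 across states by limma.

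Cebpb, a leucine zipper factor that pairs with ATF4 and CHOP, was near the floor of the table. It reached the authors' minimum of 7 in at least 4 animals of 1 state only, SA with K137 counted. Its means ranged from 6.57 ± 0.19 in EAr to 7.09 ± 0.19 in SpD. LAr (6.92 to 7.09) lay above EAr (6.34 to 6.82), but the difference of 0.41 ± 0.11 had q = 0.156 by limma. EAr minus the active states was -0.43 ± 0.10 (limma q = 0.00397), and -0.54 in experiment 2 alone (limma q = 4.73e-04).

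The second group are genes whose products restrain growth. Ddit4 encodes REDD1, an inhibitor of mTORC1 that is also induced by hypoxia and glucocorticoids. SA animals read 9.96, 9.97, 9.87, and 10.21 (K138 to K141), K137 read 10.94, and SpD animals read 10.09, 9.84, 9.84, 9.74, and 10.05 (K130, K3, K6, K84, and K9). EAr animals read 9.06, 8.69, 8.74, 9.02, and 8.95 (K154, K156, K157, K158, and K165). All EAr animals lay below all active animals. Ddit4 was lower in EAr than in the active states, with a log2 difference of -1.09 ± 0.11 (2.13-fold lower, limma q = 5.96e-07). The q was 8.14e-06 in all 31 animals, and the call remained with any 1 animal left out.

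The other states of Ddit4 lay between. IBA read 9.34, 9.41, 9.52, 9.67, and 9.49 (K1, K104, K171, K4, and K7), Ent 9.69, 9.42, 8.99, 9.41, and 9.40 (K155, K167, K2, K5, and K8), and LAr 9.24, 9.74, 9.34, 9.75, and 9.15 (K109, K111, K112, K115, and K116). These 3 states overlapped, and each had a mean about midway between EAr and the active states. LAr minus EAr was 0.56 ± 0.13 with no overlap (limma q = 0.0318), EAr minus Ent -0.54 ± 0.14 with overlap (limma q = 0.161), and SpD minus IBA 0.43 ± 0.12 with no overlap (limma q = 0.0271). The last was 0.41 in experiment 1 and 0.45 in experiment 2. LAr minus the active states was -0.54 ± 0.11 (limma q = 0.00144) and Ent minus the active states -0.55 ± 0.11 (limma q = 0.00281). The first passed the threshold when K111 or K115 was left out (limma q = 9.32e-04 and 9.18e-04).

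Sesn2, a sestrin that holds back mTORC1 when leucine is low, was called in none of the comparisons. Its means ran from 10.65 in IBA to 10.97 ± 0.30 in SA, and each pair of neighbors overlapped. The residual SD of Sesn2 was 0.27, against a median of 0.155 over all genes, and the SE of its differences was 0.15 to 0.19, so a difference of the size seen for Asns was not detectable. Gadd45a, which responds to DNA damage and to ATF4 and slows the cell cycle, was 12.38 ± 0.10 in LAr, 12.08 ± 0.22 in Ent, 12.09 ± 0.30 in EAr, 12.11 ± 0.33 in SpD, 11.79 ± 0.37 in IBA, and 11.65 ± 0.04 in SA. LAr had the highest mean, but its animals overlapped with those of every state except SA. IBA minus LAr (-0.67 ± 0.18) had q = 0.0128 and LAr minus the active states (0.54 ± 0.15) q = 0.00912 by limma, the latter reaching q = 6.95e-04 (0.61) with only those states in the fit.

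The last group are metabolic outputs of ATF4. Asns encodes asparagine synthetase. SpD animals read 10.09, 10.37, 10.36, 10.12, and 10.31 (K130, K3, K6, K84, and K9), and SA animals 10.28, 10.34, 10.54, and 10.42 (K138 to K141). EAr animals read 10.62, 10.57, 10.57, 10.57, and 10.65 (K154, K156, K157, K158, and K165), and LAr animals 10.58, 10.53, 10.44, 10.70, and 10.72 (K109, K111, K112, K115, and K116). EAr lay above every active animal and LAr overlapped only with SA. The differences were small, 0.30 ± 0.06 for EAr (1.23-fold, limma q = 4.93e-04) and 0.30 ± 0.06 for LAr (1.23-fold, limma q = 3.85e-04) against the active states, in the member with the smallest residual SD (0.0890). From EAr to LAr, the step in which Ppp1r15a and Ddit3 rose, the difference of Asns was 0.00 ± 0.06 (limma q = 0.993).

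The Asns calls were close to the threshold and were lost when single animals were left out. With 1 animal left out, the difference from the active states ranged from 0.27 to 0.34 in LAr and from 0.26 to 0.32 in EAr. Across states q was 0.00134 without K130 and 0.00135 without K84, both SpD animals. For LAr against the active states it was 0.00144, 0.00243, 0.00219, 0.00123, and 0.00138 without K109, K115, K116, K130, and K84, and 0.00170 with only those states in the fit. For EAr against the active states it was lost without any 1 of 9 animals, K138 and K139 of SA, K130 and K84 of SpD, and all 5 of EAr, with q from 0.00106 to 0.00253, and had q = 0.00130 without a term for experiment. Ent animals (10.46, 10.64, 10.62, 10.68, and 10.56 in K155, K167, K2, K5, and K8) were as high as EAr, with a difference from the active states of 0.25 ± 0.06 (limma q = 0.00490), and IBA animals (10.40 to 10.53) lay between. In all, 2 of 10 members were called in EAr against the active states, Asns higher and Ddit4 lower (4.61% of all genes), and these were also the 2 members whose groups did not overlap (5.99% of genes).

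Chac1, which degrades glutathione and is among the most inducible targets of ATF4 and CHOP, passed in none of the comparisons. SpD animals read 9.93, 7.36, 7.86, 8.50, and 7.82 (K130, K3, K6, K84, and K9) and SA animals 8.06, 8.07, 6.65, and 7.68 (K138 to K141). LAr animals read 6.86, 6.82, 7.05, 6.89, and 6.60 (K109, K111, K112, K115, and K116). LAr had the lowest mean, below all SpD animals but overlapping with 1 SA animal, K140. LAr minus the active states was -1.24 ± 0.32 (limma q = 0.00674), and LAr minus EAr, -0.40 ± 0.35 (limma q = 0.831), was the 1 negative difference among the members. The residual SD of Chac1, 0.59, was greater than that of 98.3% of genes, and the SD of SpD was 0.998 with K130 and 0.47 without it.

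The other 6 comparisons called no member. By limma, 0 of 10 were called in IBA minus SA (3.15% of all genes), SpD minus IBA (1.25%), SA minus SpD (0.0544%), Ent minus IBA (0.746%), EAr minus Ent (0.132%), and Ent minus the active states (1.26%). At an unadjusted p under 0.05 the counts were 3 (36.3% of all genes), 4 (26.6%), 3 (29.1%), 1 (29.4%), 1 (7.16%), and 5 (28.0%), below the share of all genes in IBA minus SA and Ent minus IBA. Without a term for experiment, Ddit4 had q = 9.10e-04 in Ent minus the active states (difference -0.58). The state by sex interaction was called for 0 of 10 members and for 0 of all genes (0.00%) by limma, and at an unadjusted p under 0.05 for no member against 3.11% of genes, the lowest member p being 0.0609 for Gadd45a.

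The rest of the pathway was read from 6 lists, whose counts across states stand against the same 9.34% of all genes. Of 17 genes for the eIF2 kinases, eIF2, eIF2B, and their regulators, 1 was called across states, a share below that of all genes. This was Impact, which holds back the kinase GCN2 (limma q = 6.22e-04), with 10.03 ± 0.18 in Ent and 9.61 ± 0.13 in IBA, followed by Nck1 (q = 0.00186) and Eif2b2 (q = 0.00235). No gene of this list was called in LAr minus EAr, and its median difference there was -0.02. The kinase genes Eif2ak3 (PERK, q = 0.117) and Eif2ak4 (GCN2, q = 0.0781) were not called across states by limma.

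Of 9 partners and regulators of ATF4, 7 were in the table, and 3 of these were called across states. Atf3, a repressor that is induced by ATF4 and CHOP and by many acute signals, was 8.68 ± 0.25 in EAr, 10.59 ± 0.54 in LAr, and 9.51 ± 0.50 in IBA. It rose from EAr to LAr by 1.92 ± 0.19 (limma q = 3.73e-07) and then fell by 1.42 to IBA (difference -1.42 ± 0.21, limma q = 9.10e-05), as Ppp1r15a did in these steps. Trib1, a pseudokinase that promotes degradation of C/EBP factors, rose from EAr to LAr by 0.85 ± 0.13 (limma q = 6.20e-04) and was lower in Ent than in IBA (-0.76 ± 0.13, limma q = 9.72e-04). Cebpg, the C/EBP partner of ATF4 in amino acid genes, had q = 8.73e-04 across states and was highest in IBA (9.47 ± 0.17) and lowest in EAr (8.95 ± 0.10), but was not called in all 31 animals (q = 0.00125).

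Of 16 secreted and other stress outputs, 13 were in the table and 3 were called across states. Gadd45g, a paralog of Gadd45a, was 8.48 ± 0.49 in LAr, 1.96 ± 0.20 above the active states (limma q = 5.08e-07) and 1.13 ± 0.22 above EAr (limma q = 0.00999), and from LAr to IBA it changed by -1.86 ± 0.25 (limma q = 2.68e-05). Ddit4l, a paralog of Ddit4, was 11.23 ± 0.57 in SA, 9.90 ± 0.22 in SpD, and 9.64 ± 0.30 in EAr. It was lower in EAr than in the mean of the active states (-0.95 ± 0.18, limma q = 6.46e-04), the direction of Ddit4. The 2 active states differed for Ddit4l, with SA minus SpD 1.29 ± 0.23 (limma q = 0.00333), against 0.04 (limma q = 0.879) for Ddit4. Sqstm1, the autophagy receptor p62, was highest in IBA (13.88 ± 0.15), 0.60 ± 0.11 above SA (limma q = 5.33e-04).

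No gene of the 3 metabolic lists was called in LAr minus EAr. Of 13 genes of amino acid and one-carbon synthesis, 10 were in the table and 2 were called across states, Psat1 of serine synthesis and Cth of cysteine synthesis, both lower in IBA than in SA (-1.14 ± 0.13, limma q = 7.76e-06, and -1.14 ± 0.16, limma q = 3.25e-05). In all 31 animals, Psat1 had q = 9.74e-04 across states and Cth was no longer called (q = 0.0703). Psph followed with q = 0.00188. Of 8 amino acid transporters, 7 were in the table and none was called, the lowest limma q across states being 0.00347 for Slc1a4, 0.0218 for Slc7a1, and 0.0247 for Slc1a5. All 13 aminoacyl-tRNA synthetases and tRNA exporters were in the table and 1 was called, Xpot, an exportin for tRNA, which was 0.30 ± 0.05 above the active states in EAr (limma q = 6.94e-05) and 0.23 ± 0.05 in LAr (limma q = 6.84e-04), as Asns was. Lars (q = 0.00368) and Iars (q = 0.0130) came next. Trib3, Fgf21, Stc2, Slc7a11, Mthfd2, and 4 more listed genes were not analysed here.

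**Figure D3:**
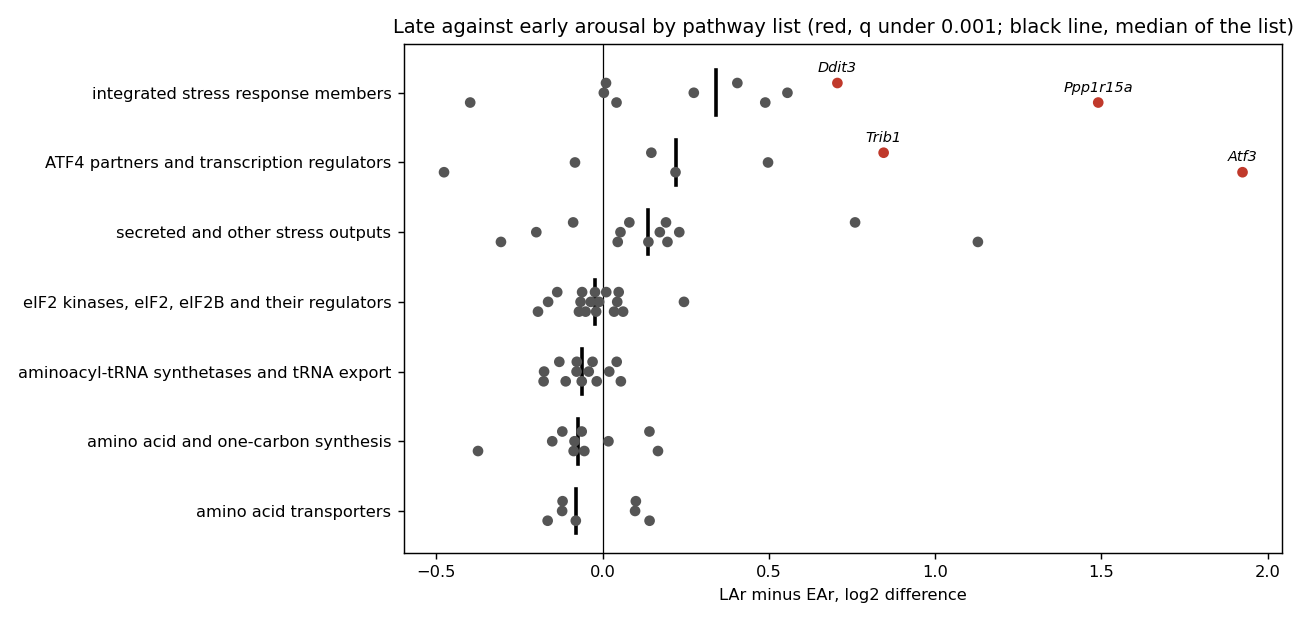
LAr minus EAr log2 differences (x axis) of the members and the 6 pathway lists (y axis), 1 point for each gene, red at q under 0.001, with the median of each list as a black line. The 4 red points are Ppp1r15a (1.49) and Ddit3 (0.71) of the members and Atf3 (1.92) and Trib1 (0.85) of the ATF4 partners, and the medians are 0.34 for the members and -0.02 for the eIF2 list.

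The profiles most like those of the called members, by Pearson's r over the 29 animals, differed between members. These r values are a description, since the animals share their states and experiments. For Ppp1r15a they were Ciart, a repressor of the circadian clock (r = 0.95, Spearman's rho = 0.90), and the unnamed locus LOC101968910 (0.94 and 0.86). For Ddit3 they were Atf3 (0.86 and 0.75) and the unnamed locus LOC101963015 (0.86 and 0.84), for Ddit4 Pnrc1 (0.80 and 0.80) and the phosphatase Dusp6 (0.80 and 0.76). Atf4 was most like ZCCHC3 (0.90 and 0.92) and Frat2 (0.88 and 0.88), and Asns was most like Asah1, a lysosomal ceramidase (0.87 and 0.82), and Gnptg, which helps to tag enzymes for lysosomes (0.87 and 0.80).

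Within states the members did not vary as a single set. After removal of state, sex, and experiment, Pearson's r between members over the 29 animals had a median of 0.05 over 45 pairs, with a range from -0.67 to 0.67, and 4 pairs were above 0.5. These were Atf4 with Cebpb (0.67), Atf4 with Ddit3 (0.66), Atf5 with Chac1 (0.64), and Ddit3 with Chac1 (0.51). Asns ran opposite to Chac1 (-0.67) and Atf5 (-0.51), and Sesn2 opposite to Cebpb (-0.52). Without K130, an alternative chosen after the data were seen, the median was 0.04 and 3 pairs were above 0.5, and with K113 and K137 the median was 0.18, 9 pairs were above 0.5, and Atf4 with Ddit3 reached 0.82. The points share a library preparation within each experiment, and no test was made.

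**Figure D4:**
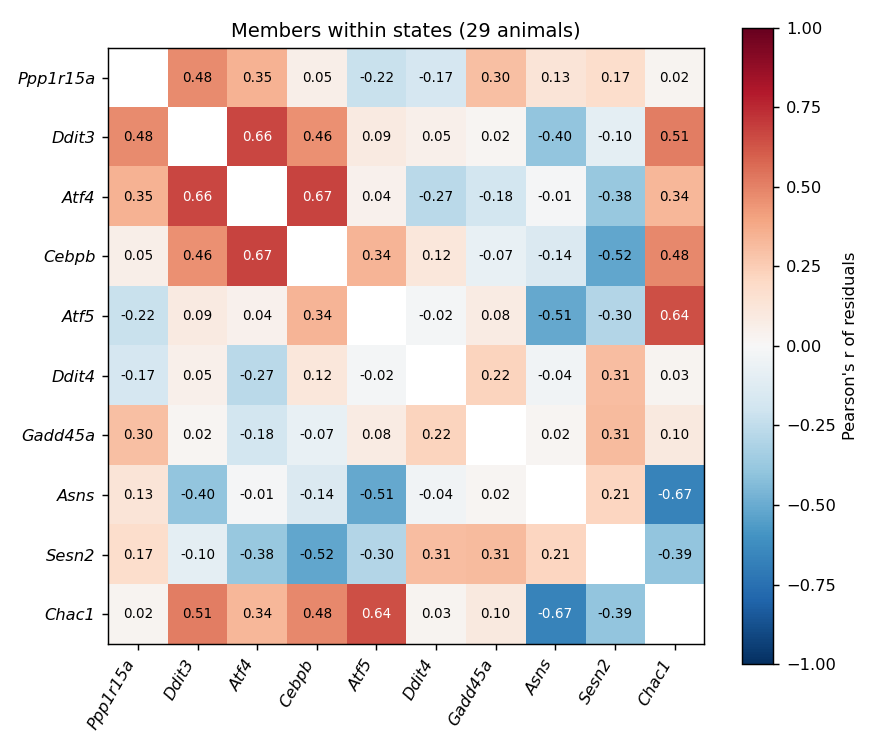
Pearson's r (color, from -1 to 1) of each pair of members after state, sex, and experiment were removed, in 29 animals. Red squares join Atf4 with Cebpb and Ddit3 (0.67 and 0.66) and Atf5 with Chac1 (0.64), and the darkest blue square is Asns with Chac1 (-0.67).

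K113 and K137 carried high values of the same 7 members. In K113, Atf4, Ddit3, Ddit4, Chac1, Ppp1r15a, Gadd45a, and Cebpb were above all 5 other LAr animals, 7 of 10 members against 35.6% of all genes, and 1, Atf5, was below them (37.2%). The excess over the mean of the others was 1.01 for Cebpb, 0.99 for Chac1, 0.84 for Ddit3, 0.56 for Atf4, and 0.49 for Ppp1r15a. In K137, the same 7 members were above all 4 other SA animals (33.9% of all genes), and Asns and Sesn2 were below them (29.5%). There the excess was 1.41 for Chac1, 0.94 for Ddit4, 0.90 for Ppp1r15a, and 0.73 for Ddit3.

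K130, an SpD animal among the 29, was picked out after its values were seen. It had 4 of 10 members above the other 4 SpD animals, Atf4, Ddit4, Chac1, and Cebpb (32.7% of all genes), and 2 below, Asns and Sesn2 (28.4%). Both counts are near the shares of all genes, so they do not set the members apart in this animal. Chac1 was 2.04 above the mean of the others, and Ppp1r15a and Ddit3 were within their range. The 3 kidneys also differed in tissue markers. The mean of the proximal tubule markers was 13.84 in K113, against 14.78 to 15.05 in the rest of LAr, and 13.72 in K130 (other SpD animals 14.05 to 15.48), and K137 lay below the other SA animals (14.77 to 15.10), so each was the lowest of its state. The mean of the fibroblast markers was 9.0 in K113 (others 7.18 to 7.56) and 8.94 in K137 (others 7.46 to 8.32), above their states, and 7.75 in K130, within the other SpD animals (7.16 to 8.01). K130 was further from the other SpD animals in other markers, with Slc12a3 of the distal convoluted tubule at 11.54 (others 13.67 to 14.30), the podocyte mean at 10.17 (others 12.08 to 12.24), and the B cell gene Cd79a at 7.85 (others 9.71 to 10.06). Its loop of Henle (16.53, others 15.21 to 16.09) and principal cell (14.44, others 13.80 to 14.13) means were above the rest. Slc12a3 was also low in K113 (13.06, others 13.81 to 14.43) and K137 (13.13, others 13.64 to 14.05). So, in that order, were the podocyte mean (11.36, others 11.70 to 12.16, and 11.63, others 11.84 to 12.37) and Cd79a (8.71, others 9.37 to 9.96, and 9.52, others 9.68 to 10.41). Their principal cell means were above the others (14.06, others 13.45 to 13.78, and 14.29, others 13.60 to 13.79). Their intercalated cell means were below (10.07, others 10.47 to 10.86, and 10.16, others 11.00 to 11.48). The part of these cells in the member values was not tested.

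**Figure D5:**
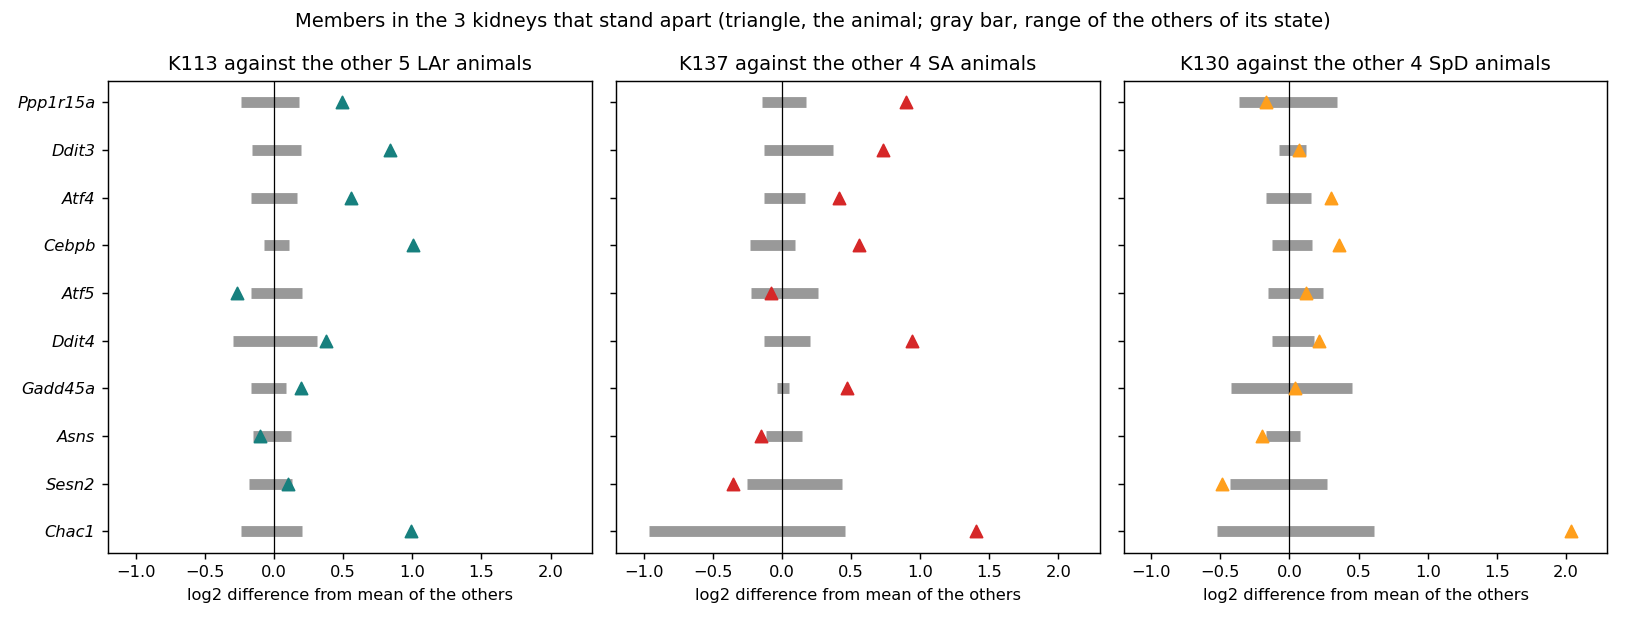
Log2 difference of K113, K137, and K130 (triangles) from the mean of the other animals of their state, for each member (y axis), with gray bars for the range of those others. Chac1 lies furthest right in K137 (1.41) and K130 (2.04) and Cebpb in K113 (1.01), whereas Asns and Sesn2 lie below the bar in K137 and K130. In K130 the counts of members beyond the bars are near the shares of all genes.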

How the data were processed

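RNA-Seq values of 31 kidneys were used as deposited. Per the study's methods, the authors made poly(A)-selected libraries, trimmed adaptors (cutadapt), set mitochondrial reads aside (hisat2), and assigned the remainder to HiC_Itri_2 transcripts (Salmon), which were summed by gene (tximport). Genes with an rlog value of at least 7 in 4 animals of a group were kept. The authors computed rlog values (DESeq2) and took out the difference between experiments (limma), so the deposited unit is log2, and tool versions are not given in the sources used here. The rlog transform shrinks differences of low counts. Counts were not used here, so depth and counting error are unknown, and precision is the spread between animals.

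The study's DE test on counts was replaced by limma 3.58.1 (R 4.3.3) on the deposited values of all 12863 genes. Terms were state, sex, and experiment, the prior variance followed intensity, and p-values were adjusted by Benjamini-Hochberg for each contrast separately, with a threshold of 0.001. Contrasts share animals, so they are not independent. Active states means the average of SA and SpD. The model was tested on simulated data. As alternatives, all 31 animals were fitted, the term for experiment or that for sex was dropped, experiment 2 was fitted alone, animals were centered to 1 median, genes with a mean under 8 were removed, the intensity trend was dropped, q under 0.05 was used, only the groups compared were fitted, and each animal was left out.

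The members, lists, and comparisons were chosen with earlier results of these data known. All members are given, with up to 3 genes of lowest q across states in each pathway list (PERK and GCN2 were added after their values were seen) and the 2 genes most like each called member. All 10 members have an entry of the same symbol in RefSeq (mIctTri1.hap1). That assembly differs from the one the authors used, and positions and sequences are therefore not printed.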

Additional observations from a re-analysis of the deposited data

Results flagged for a closer look

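Of 80 groups of member values (each member in each state, and LAr and SA again with K113 and K137), 9 had 1 animal far from the rest by Dixon's test, which chance gives in about 1 in 20 groups. Among the 29 animals these were Atf5 in EAr, where K165 read 9.24 and the others 9.57 to 9.64, and Ddit3 in SA, where K139 read 9.51 and the others 9.01 to 9.02. In Ent, K167 read 6.41 for Chac1 (others 7.56 to 7.95), in EAr K154 read 12.62 for Gadd45a (others 11.90 to 12.06), and in SA K138 read 6.73 for Cebpb (others 7.02 to 7.05). The remaining flags are of K113 and K137, which the study had removed as outliers. Their flags were thus favored in advance and cannot be set against the rate of 1 in 20. With the animals shown apart, K113 stood above the other LAr animals for Ddit3 (10.57, others 9.57 to 9.93), Chac1 (7.84, others 6.60 to 7.05), and Cebpb (7.99, others 6.92 to 7.09). K137 stood above the other SA animals for Gadd45a (12.12, others 11.61 to 11.70).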

How the results depend on the processing

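Of the 13 called results of single members, 5 are tests across the 6 states, which have no direction. None of the others changed direction. At q under 0.001 the 13 results kept their call in 88 of 99 other settings and lost it in 11. The losses were 4 with all 31 animals, 2 with experiment 2 only, 1 without a term for experiment, and 4 with only the groups compared. With all 31 animals, 8 of 100 member differences, none of them called and all with q of at least 0.639, changed sign. At q under 0.05, the members called (and share of all genes) became 9 across states (46.1%), 4 in LAr minus EAr (0.575%), 3 in IBA minus LAr (18.0%), 1 in Ent minus IBA (13.1%), 2 in IBA minus SA (22.9%), 3 in SpD minus IBA (11.9%), 7 in LAr (27.3%), 5 in EAr (24.2%), and 4 in Ent (13.3%) against the active states, and stayed 0 in EAr minus Ent (0.257%) and SA minus SpD (10.5%). With all 31 animals they were 3 across states and 1 in LAr minus EAr, and with experiment 2 only 1 in LAr minus EAr and 4 in EAr against the active states. With only the groups compared they were 1 in LAr minus EAr and 0 in IBA minus LAr, and without a term for experiment 1 each in EAr and Ent against the active states. In LAr against the active states, Ddit3 lost its call with all 31 animals and with experiment 2 only. With only the groups compared, Ddit3 and Asns lost theirs there and Gadd45a gained one. With 1 animal left out, the counts of called members ranged from 3 to 6 across states (3 without K84), from 1 to 2 in LAr minus EAr, from 2 to 4 in LAr and from 1 to 2 in EAr against the active states, and were the same in the other comparisons. The cause of these changes was not tested. Chac1 and Cebpb have means under 8 and drop out under that filter. No paired analysis was possible because each animal number belongs to 1 animal in 1 state. Without depths, it is unknown how much of the spread of low genes such as Cebpb and Chac1 is counting error.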
